A study of Mus musculus with 6 samples.

Results

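Collagen genes, taken as every gene whose symbol is Col, a number, the letter a and a number, were compared between *Hnrnpa2b1* KO and WT C2C12 cells. The count table lists 44 of them among 46078 genes, and 33 reached at least 10 counts in at least 3 of the 6 libraries. In all 6 libraries, 25 reached that level. C2C12 cells are mouse myoblasts, an immortalized line that forms multinucleated myotubes once serum is lowered. There were 3 KO libraries (KO1 to KO3) and 3 WT libraries (WT1 to WT3) of ribosome-depleted total RNA, all taken after 48 hr of differentiation by serum withdrawal, with an ITS supplement. Values are given in the order KO1, KO2, KO3 and WT1, WT2, WT3. The KO cells carry CRISPR-Cas9 edits made with a guide RNA against *Hnrnpa2b1*, under puromycin selection. Per the methods, 3 independent KO and WT clones were picked with cloning rings, and which clone gave each library is not given in the sources used here. The p-values therefore measure the spread between these libraries. Whether each library is a separate clone is not known, so genotype and clone of origin cannot be told apart from the labels.

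Collagens are secreted proteins whose chains wind into a triple helix. Fibrillar collagens (types I, III and V among them) bundle into the load-bearing fibrils of connective tissue, and collagen IV forms the sheet-like network of basement membranes. Collagen VI makes beaded microfilaments next to the muscle cell surface, and mutations in its chains cause the collagen VI muscular dystrophies. FACIT collagens sit on the surface of fibrils. In muscle, fibroblasts make much of the interstitial collagen, and myogenic cells contribute chains of the basement membrane.

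The libraries held 33605258 to 40558740 counted reads. The spread between KO libraries was wider than between WT libraries, with a chi-square per degree of freedom of 172 to 190 against 51.8 to 87.4, and no library repeated another. *Hnrnpa2b1* RNA was 159, 195 and 249 CPM (reads per 1000000 counted, scaled with TMM factors) in KO and 225, 229 and 252 in WT. The change was −0.23 on the log2 scale (KO over WT, SE 0.18, adjusted p = 0.381), so the RNA level does not check the labels. Per the methods, loss of the protein from the KO clones was checked by immunofluorescence and Western blot, data not analysed here.

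The KO cells held more RNA of the collagen VI chains *Col6a1* and *Col6a2* and of the minor fibrillar chains *Col5a3*, *Col11a2* and *Col27a1*. The rare collagen VI chain *Col6a5* was also higher, but it reached 10 counts in KO libraries only and so entered the test through the group in which it was high. The KO cells held less of the fibrillar chain *Col24a1*, the FACIT chain *Col20a1* and the transmembrane chain *Col25a1*, and more of the transmembrane chain *Col17a1*. Among the KO libraries *Col25a1* reached 10 counts in KO3 only, so it entered the test through WT, the group in which it was high. Of the 33 tested collagen genes 10 were differentially expressed (30.3%) at an adjusted p under 0.05, against 22.7% of all 14828 genes. There were 7 collagens with more RNA in KO (21.2%, against 12.1% of all genes) and 3 with less (9.09%, against 10.6%). Among genes that reached 10 counts in both genotypes the higher share was 18.8% of 32 collagens, against 11.4% of 14451 genes. The main chains of type I, III and IV collagen did not pass the threshold. In 11 tested collagen genes (33.3%) the KO and WT libraries did not overlap in CPM, against 44.3% of all genes tested. Thus the share of collagen genes called was above the background for rises and near it for falls, and the share that did not overlap was below it, as a description with no test of these shares. The number of higher collagens depended on single libraries. In edgeR it was 0 without WT1 (7 at an unadjusted p under 0.05), 2 without KO3 or WT3 and 3 without WT2. Without KO2 it was 5 and without KO1 it was 10. Calls over all genes moved too, from 3361 with all libraries to 933 without WT1 and 4712 without KO1, in either direction. The number was 11 in DESeq2. In limma on TPM it was 1, but of the 7 genes only *Col5a3*, *Col6a1* and *Col6a2* were tested there. The median log2 fold change of the 33 tested genes was 0.51, against 0.03 over all genes.

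**Figure D1:**
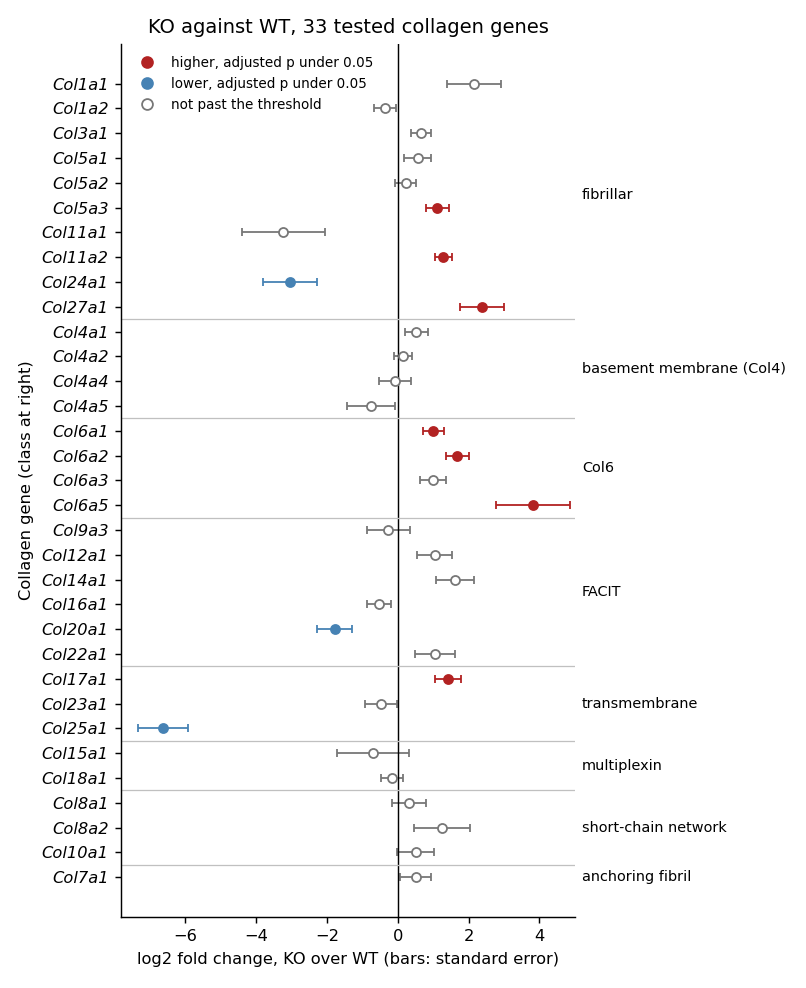
Change between genotypes (log2 of KO over WT) with a standard error derived from the test statistic for each of the 33 tested collagen genes, grouped by class. Filled red points are the 7 genes higher in KO, filled blue points the 3 lower genes, and open points the 23 genes that did not pass an adjusted p of 0.05. The Col6 points all lie right of 0, whereas the fibrillar points lie on both sides.

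Collagen reads took 1.36%, 1.64% and 2.55% of all counted reads in KO and 0.967%, 1.33% and 1.19% in WT. Every KO library was above every WT library, although KO1 and WT2 lay close together. In summed TPM, which corrects for gene length, the groups overlapped, with KO1 at 1545 below WT2 at 1719. Col6 genes made up 19.4%, 30.7% and 25.5% of the collagen reads in KO and 15.9%, 16.9% and 17.5% in WT, again without overlap. The fibrillar share was 70.8%, 56.8% and 61.8% in KO and 69.5%, 70.3% and 68.2% in WT, so the groups overlapped through KO1. In both genotypes fibrillar genes took the larger part of the collagen reads, followed by Col6. Summed CPM of KO over WT was 2.20 for Col6, 1.32 for fibrillar and 1.29 for Col4 genes. For FACIT genes it was 1.90 but 1.12 without KO3, since their sums were 187, 269 and 703 CPM in KO and 161, 271 and 176 in WT.

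**Figure D2:**
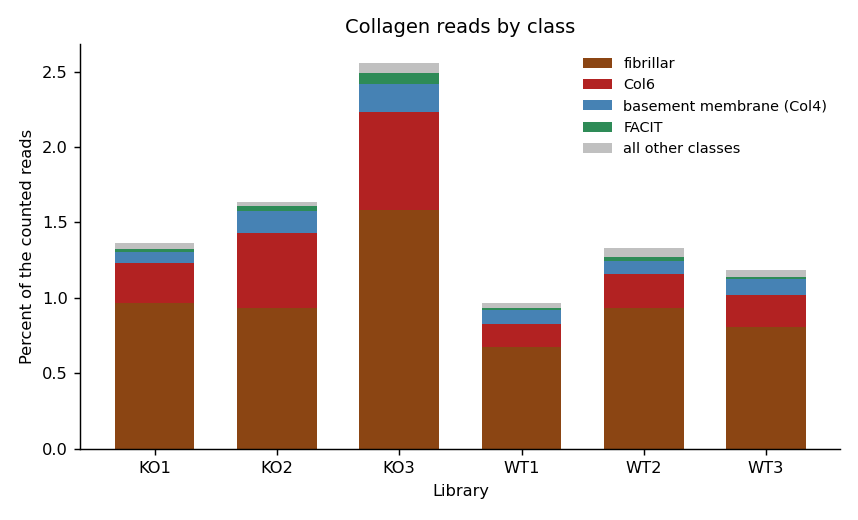
Percent of all counted reads that fell on collagen genes in each library, stacked by class, with the bars starting at 0. KO3 has the tallest bar at 2.55%, WT1 the shortest at 0.967%, and the red Col6 segment is taller in each KO library than in any WT library.

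Collagen VI is assembled from the α1, α2 and α3 chains, encoded by *Col6a1*, *Col6a2* and *Col6a3*, and *Col6a5* encodes a longer α3-like chain. On GRCm38, *Col6a1* (ENSMUSG00000001119) lies on the minus strand at chr10:76708792-76726168 and *Col6a2* (ENSMUSG00000020241) on the same strand at chr10:76595762-76623630, 85161 bases apart. *Col6a3* (ENSMUSG00000048126) lies at chr1:90765923-90843971, also on the minus strand. The stretches just upstream of these genes are shown because the 3 chains form 1 protein and had positive log2 fold changes, of which that of *Col6a3* did not pass the test, and that of *Col24a1* (chr3:145292472-145552011, plus strand) to set a fibrillar gene that fell beside them. They come from the RefSeq promoter windows of GRCm38.p6, read 5′ to 3′ along each gene's strand, at chr10:76726169-76726294 for *Col6a1*, chr10:76623631-76623880 for *Col6a2*, chr1:90843972-90844221 for *Col6a3* and chr3:145292222-145292471 for *Col24a1*. The *Col6a1* stretch is shorter, at 126 bases, because the RefSeq start lies 124 bases inside the gene as deposited. Capitals mark the letters of a searched motif.
Col6a1: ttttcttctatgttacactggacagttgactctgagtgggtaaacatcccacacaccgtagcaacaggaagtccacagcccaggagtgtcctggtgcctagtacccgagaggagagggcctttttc
Col6a2: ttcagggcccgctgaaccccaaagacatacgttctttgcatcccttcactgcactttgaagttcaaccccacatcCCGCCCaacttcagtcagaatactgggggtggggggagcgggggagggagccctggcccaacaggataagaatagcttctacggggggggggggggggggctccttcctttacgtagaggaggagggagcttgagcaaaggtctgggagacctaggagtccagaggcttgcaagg
Col6a3: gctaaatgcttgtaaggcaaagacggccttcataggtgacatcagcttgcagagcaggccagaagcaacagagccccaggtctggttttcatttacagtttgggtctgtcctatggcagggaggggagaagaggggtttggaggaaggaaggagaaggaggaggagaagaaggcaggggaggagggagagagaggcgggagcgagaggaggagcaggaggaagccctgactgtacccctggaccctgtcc
Col24a1: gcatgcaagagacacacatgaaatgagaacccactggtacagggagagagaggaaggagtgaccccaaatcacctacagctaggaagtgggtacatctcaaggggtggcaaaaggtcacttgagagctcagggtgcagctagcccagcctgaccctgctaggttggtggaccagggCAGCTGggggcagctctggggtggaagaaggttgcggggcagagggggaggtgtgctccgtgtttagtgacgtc

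The 250 bases before the RefSeq start were searched on both strands for 5 short motifs, namely the CCAAT box (its own letters), the GC box (GGGCGG), the TATA box (TATAAA), an E-box that muscle regulatory factors can bind (CAGCTG) and a motif that AP-1 can bind (TGACTCA). *Col6a2* holds a GC box on the opposite strand, whose first printed base lies 175 bases before the start, and *Col24a1* holds an E-box that begins 74 bases before it. *Col6a1* has TGACTCA 90 bases before the RefSeq start, in the part that overlaps the deposited gene and is not printed, and *Col6a3* has none of the 5. The Col6 windows thus shared no motif of this search. Among all 32851 RefSeq windows of that length, 32.7% hold a GC box, 13% this E-box and 4.46% TGACTCA. Among the 38 windows of the 35 collagen genes that matched a symbol, the shares were 57.9%, 15.8% and 2.63%. CCAAT was in 34.2% of the collagen windows and 33.8% of all, and TATAAA in 13.2% and 12.4%. A match describes letters in a window, not a site in use.

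Of the 6 Col6 genes 4 were tested, and their log2 fold changes had a median of 1.34. *Col6a5* passed the filter on low counts only through KO, and the median of the other 3, each positive, was 1.0. *Col6a2* had 649, 1108 and 1555 CPM in KO and 270, 357 and 407 in WT. Every KO library was above every WT library, with KO1 the lowest of the KO libraries, and the log2 fold change was 1.68 (SE 0.33, adjusted p = 0.0118). *Col6a1* had 1503, 2520 and 3220 CPM in KO and 1025, 1307 and 1289 in WT. The groups did not overlap, KO1 lay near the WT libraries, and the log2 fold change was 1.0 (SE 0.30, adjusted p = 0.0462). *Col6a3* had 538, 1034 and 1333 CPM in KO and 315, 643 and 495 in WT. KO1 fell below WT2, so the groups overlapped, and its log2 fold change of 1.0 (SE 0.37, adjusted p = 0.0876) did not pass. *Col6a5* was far less abundant, with 11, 181 and 38 counts in KO and 1, 6 and 6 in WT. KO2 was the highest and no WT library reached 10 counts, so a gene kept by the filter with this pattern had to differ. Summed over libraries the ratio of KO to WT was 15.4 (95% interval 8.8 to 29.3, for counting error only), and the log2 fold change was 3.82 (SE 1.04, adjusted p = 0.0355). *Col6a4* and *Col6a6* had at most 18 counts in any library and were not tested. Without KO1, the library with the lowest Col6 levels in KO, *Col6a3* passed as well (1.28, adjusted p = 0.0120), and with any other library left out it did not (0.70 to 1.25, adjusted p = 0.0884 to 0.266). The call of *Col6a2* was lost only without WT1 among the 6 libraries left out in turn (1.52, adjusted p = 0.0654), whereas that of *Col6a1* was lost without KO2, KO3, WT1, WT2 or WT3 (0.74 to 1.05, adjusted p = 0.0833 to 0.185). That of *Col6a5* was lost without the same 5 libraries (2.30 to 4.17, adjusted p = 0.0543 to 0.129).

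**Figure D3:**
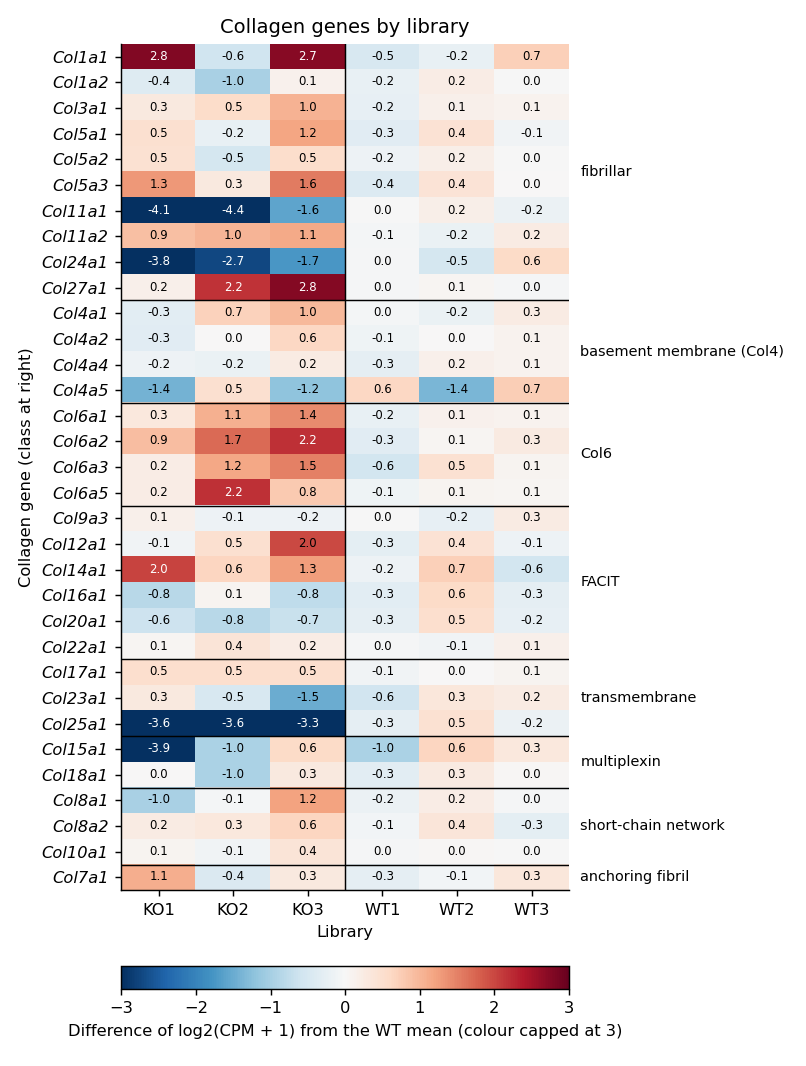
Each of the 33 tested collagen genes (rows, grouped by class) in each of the 6 libraries (columns). Colour and number give the difference of log2(CPM + 1) from the WT mean, with colour capped at 3. *Col6a2* is red in all KO libraries and *Col25a1* dark blue in all of them, whereas *Col1a1* is red in KO1 and KO3 but not in KO2.

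Of the 11 fibrillar genes 10 were tested, and the single untested one, *Col2a1* of cartilage, had at most 3 counts in any library. The median log2 fold change was 0.60 (0.28 without KO3), with 3 genes higher (30% of those tested, against 12.1% of all genes) and 1 lower (10%, against 10.6%). *Col3a1*, the α1 chain of type III collagen that is abundant in the muscle interstitium, was the collagen with the most reads. It had 4949, 5938 and 8313 CPM in KO and 3423, 4489 and 4359 in WT. The groups did not overlap, yet the log2 fold change of 0.65 (SE 0.28, adjusted p = 0.132) did not pass. It passed without KO1 (0.79, adjusted p = 0.0487), and was 0.42 without KO3 (adjusted p = 0.285) and 0.52 without WT1 (adjusted p = 0.404).

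Type I collagen, the main protein of tendon and bone, is built from *Col1a1* and *Col1a2* chains, and the KO libraries disagreed about the first of them. *Col1a1* had 449, 42.4 and 440 CPM in KO and 46.4, 55.6 and 107 in WT. KO1 and KO3 were above all WT libraries, whereas KO2 was the lowest of the 6. The log2 fold change was 2.16 (SE 0.76, adjusted p = 0.0760) and it passed without KO2 (2.68, adjusted p = 0.00612) but not with another library left out (1.78 to 2.58, adjusted p = 0.104 to 0.227). *Col1a2* had 1681, 1116 and 2408 CPM in KO and 1903, 2589 and 2177 in WT. The groups overlapped, and the log2 fold change was −0.36 (SE 0.30, adjusted p = 0.414). It was −0.66 without KO3 and −0.11 without KO2.

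Type V collagen nucleates fibrils of types I and III. *Col5a1* had 1248, 764 and 2019 CPM in KO and 708, 1207 and 825 in WT (log2 fold change 0.56, SE 0.37, adjusted p = 0.295). *Col5a2*, which lies 24614 bases from *Col3a1* on chromosome 1, had 1342, 676 and 1397 CPM in KO and 867, 1104 and 956 in WT (0.22, SE 0.29, adjusted p = 0.599). In both genes KO1 and KO3 were above the WT libraries and KO2 was below or among them. Without KO3 the log2 fold changes were 0.14 for *Col5a1* and 0.05 for *Col5a2*, and without KO2 they were 0.85 and 0.49. The minor chain *Col5a3* (chr9:20770050-20815067) had 156, 76.8 and 184 CPM in KO and 46.9, 82.4 and 62.2 in WT. It had the same pattern, with KO2 below WT2, and rose by the test (1.12, SE 0.33, adjusted p = 0.0459). This call was lost when any library but KO2 was left out, with log2 fold changes of 0.87 to 1.34 and an adjusted p of 0.0550 to 0.163.

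Type XI collagen is the relative of type V in cartilage. *Col11a2* (chr17:34039437-34066685) had 5.15, 5.63 and 6.27 CPM in KO and 2.17, 1.89 and 2.91 in WT. The KO libraries lay close together above all WT libraries (1.29, SE 0.25, adjusted p = 0.0123), and the call was lost without WT1 (1.23, adjusted p = 0.0692). *Col11a1* went the other way, with 12, 2 and 263 counts in KO and 727, 793 and 699 in WT, and was chosen for description after its values were seen. All KO libraries were below all WT libraries, but KO3 lay far above the other KO libraries, and the log2 fold change of −3.23 (SE 1.17, adjusted p = 0.0820) did not pass. Without KO3 it was −6.86 (adjusted p = 0.00276), and with 1 of the other libraries left out −3.33 to −2.63 (adjusted p = 0.0776 to 0.184). The genes of the α1 and α2 chains of type XI collagen therefore had opposite signs.

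*Col24a1* and *Col27a1* encode fibrillar chains of developing bone and cartilage. *Col24a1* had 0.308, 1.79 and 4.57 CPM in KO and 17.2, 11.9 and 26.5 in WT. It was lower in every KO library (−3.05, SE 0.76, adjusted p = 0.0264), and the call was lost without KO2, WT1 or WT3 (−3.12 to −2.73, adjusted p = 0.0660 to 0.0905). *Col27a1* (chr4:63214004-63334991) had 3.30, 16.3 and 25.2 CPM in KO and 2.78, 3.05 and 2.78 in WT. KO1 stood just above WT2 while KO2 and KO3 were several fold higher (2.38, SE 0.62, adjusted p = 0.0304). The call held only without KO1 among the libraries left out, and was otherwise lost at 1.78 to 2.42 with an adjusted p of 0.0602 to 0.113.

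Collagen IV is made mainly of *Col4a1* and *Col4a2* chains, whose genes stand head to head on chromosome 8 and overlap by 22 bases in the deposited annotation. Of 6 Col4 genes 4 were tested and 0 passed in edgeR with the filter on low counts, with 0 at an unadjusted p under 0.05 and a median log2 fold change of 0.04 that turned to −0.31 without KO3 and −0.14 without WT1. DESeq2 called 1 Col4 gene, *Col4a6*, which had 80 counts in KO2 and at most 9 elsewhere, and edgeR without a filter on low counts called *Col4a5* and *Col4a6*. *Col4a1* had 466, 937 and 1128 CPM in KO and 560, 502 and 690 in WT. KO1 was the lowest library and KO2 and KO3 the highest of all 6 (0.53, SE 0.32, adjusted p = 0.249), and without KO1 it passed (0.82, adjusted p = 0.0165), while without KO3 it was 0.27 (adjusted p = 0.588). *Col4a2* had 307, 392 and 603 CPM in KO and 359, 396 and 420 in WT. Its groups overlapped (0.15, SE 0.25, adjusted p = 0.692) and the sign turned without KO3 (−0.16). *Col4a4*, a chain of kidney and lung basement membranes, had 16 to 45 counts (−0.07, adjusted p = 0.919). *Col4a5* on the X chromosome had 6.02, 25.1 and 7.08 CPM in KO and 27.8, 6.28 and 30.1 in WT. It was high in KO2, WT1 and WT3 and low in the other libraries of both genotypes, so its spread did not follow the genotype (−0.75, SE 0.68, adjusted p = 0.454).

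Of 9 listed FACIT genes 6 were tested, with a median log2 fold change of 0.39 and 3 positive values. *Col12a1*, which coats type I fibrils in tendon and muscle, had 161, 241 and 683 CPM in KO and 141, 232 and 156 in WT. KO3 stood apart from the other 5 libraries (1.04, SE 0.50, adjusted p = 0.164), and the value was 0.19 without it and 1.38 (adjusted p = 0.0297) without KO1. *Col20a1* was the FACIT gene that passed (16.7% of those tested, against 22.7% of all genes). Its counts were 17, 12 and 17 in KO and 30, 73 and 34 in WT. It was lower in every KO library (−1.78, SE 0.49, adjusted p = 0.0373). The call was lost when any library but KO1 was left out (−2.02 to −1.21, adjusted p = 0.0682 to 0.115). *Col14a1*, *Col16a1*, *Col9a3* and *Col22a1* had log2 fold changes of 1.61, −0.53, −0.26 and 1.05 with overlapping groups (adjusted p = 0.0662 to 0.778). *Col9a1*, *Col9a2* and *Col19a1* had at most 5 counts in any library.

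Transmembrane collagens span the plasma membrane and can shed their outer part. *Col25a1*, whose product is known to act in motor nerve entry into developing muscle, was lower in KO. It had 1, 1 and 12 counts in KO and 322, 527 and 369 in WT. Only KO3 among the KO libraries reached 10 counts, so the gene entered the test through WT, the group in which it was high. All KO libraries were far below all WT libraries, and the summed counts gave a WT to KO ratio of 100.2 (95% interval 59.5 to 184, counting error only). The log2 fold change was −6.63 (SE 0.71, adjusted p = 0.00193), and it stayed past the threshold with each library left out (−8.68 to −6.10, adjusted p = 0.000497 to 0.0130). The gene (ENSMUSG00000058897) spans chr3:130131501-130599877. *Col17a1*, a hemidesmosome protein of skin, had 31, 38 and 36 counts in KO and 8, 11 and 15 in WT. The groups did not overlap (1.42, SE 0.37, adjusted p = 0.0299), and the call was lost when any library but KO1 was left out (1.22 to 1.58, adjusted p = 0.0625 to 0.138). *Col23a1* had 32.1, 18.3 and 8.67 CPM in KO and 17.0, 33.2 and 31 in WT and did not pass (−0.46, adjusted p = 0.480). *Col13a1*, a collagen of the neuromuscular junction, had at most 7 counts.

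Of the remaining classes 6 genes were tested and 0 passed in edgeR, with 0 at an unadjusted p under 0.05 and 0 in DESeq2. *Col18a1*, a basement membrane proteoglycan whose fragment is endostatin, had 324, 166 and 393 CPM in KO and 258, 392 and 332 in WT (−0.15, adjusted p = 0.741, and 0.14 without KO2). Its relative *Col15a1* ranged from 0.616 CPM in KO1 to 35.6 in KO3, against 11.6 to 36.9 in WT, and its groups overlapped (−0.70, adjusted p = 0.639). *Col8a1*, a short chain that forms hexagonal networks, had 35.5, 68.5 and 164 CPM in KO and 63.0, 82.5 and 69.2 in WT (0.32, adjusted p = 0.648, and −0.46 without KO3). KO1 was the lowest and KO3 the highest library for it. *Col8a2* (1.25, adjusted p = 0.280), *Col10a1* (0.51, adjusted p = 0.503) and the anchoring fibril gene *Col7a1* (0.51, adjusted p = 0.432) did not pass. *Col26a1* and *Col28a1* had at most 4 counts.

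Levels of different chains were compared in TPM, which corrects for length. In WT the order by mean TPM was *Col3a1* (510 ± 75.9, SD, n = 3), *Col1a2* (288 ± 54.3), *Col6a1* (199 ± 26.8), *Col5a2* (102 ± 15.5) and *Col5a1* (75.3 ± 24.5). In KO it was *Col3a1* (816 ± 323), *Col6a1* (411 ± 190), *Col1a2* (235 ± 116), *Col6a2* (192 ± 101) and *Col5a2* (121 ± 49.9). Col6 chains took higher places in KO, *Col6a1* moving from the 3rd to the 2nd and *Col6a2* from the 7th to the 4th, but in KO the neighbours in this order differed by less than the larger SD of each pair except *Col3a1* and *Col6a1*. *Col1a1* was only 13th in WT at 8.07 ± 3.29 TPM. Of 21 collagen genes tested with limma on log2(TPM + 1), 4 passed, against 20.2% of 11691 genes tested. *Col6a2* was higher (difference in log2(TPM + 1) of 1.58, adjusted p = 0.0166), and *Col11a1* (−1.29, adjusted p = 0.00582), *Col24a1* (−1.16, adjusted p = 0.00779) and *Col25a1* (−1.33, adjusted p = 0.00217) were lower. These 3 lower genes reached 1 TPM in WT libraries only, and so entered this test through the group in which they were high. Of the 5 collagens called on counts that could be tested on TPM, 3 passed on both, and *Col5a3* (0.95, adjusted p = 0.0764) and *Col6a1* (0.94, adjusted p = 0.0650) did not. With 1 library left out the number called by limma on TPM ranged from 0 (without WT1 or WT3, where edgeR called 1 and 3 collagens on counts) to 8 (without KO1).

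**Figure D4:**
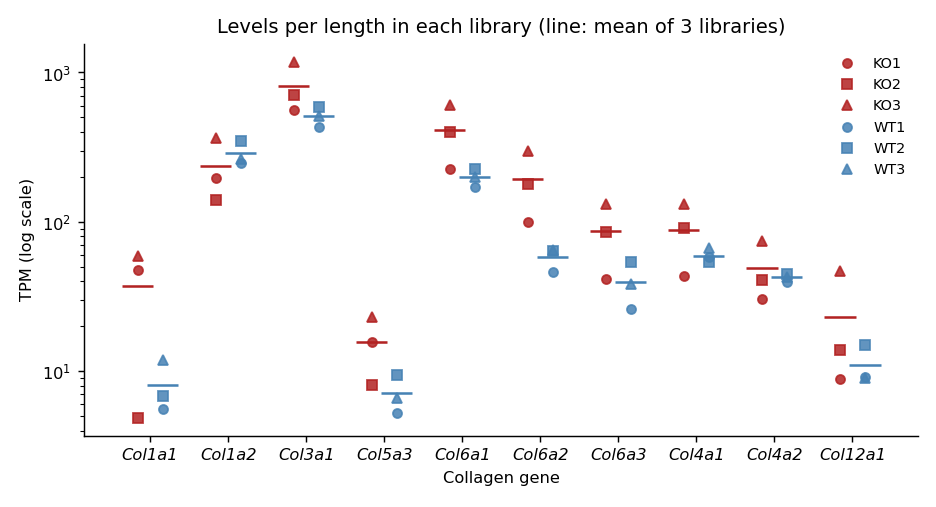
TPM (log axis) of 10 collagen genes in each library, with KO in red, WT in blue, a shape for each replicate number and a line at the mean of 3 libraries. The red and blue points are apart for *Col6a2*, KO1 (227 TPM) and WT2 (226 TPM) meet for *Col6a1*, and for *Col1a1* KO2, at 4.86 TPM, lies below the WT points.

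Chains that share a trimer, and *Col3a1* with *Col1a1* as the α1 chains of 2 fibril types, were also compared within a library as ratios of TPM, with 6 ratios and an exact two-sided permutation test whose smallest p for 3 against 3 is 0.1. *Col6a1* over *Col6a2* was 2.29, 2.24 and 2.03 in KO and 3.70, 3.56 and 3.08 in WT. Each KO library was below each WT library and the spread was small (log2 difference −0.66, exact p = 0.1, adjusted over the 6 ratios p = 0.4). The 2 neighbouring genes thus rose unequally by these values, without passing the test. *Col1a1* over *Col1a2* was 0.238, 0.0346 and 0.163 in KO and 0.0225, 0.0194 and 0.0447 in WT. Only KO1 and KO3 were above all WT libraries (log2 difference 2.03, exact p = 0.2, adjusted p = 0.4). The exact p was 0.4 for *Col3a1* over *Col1a1* (log2 difference −1.02), 0.3 for *Col4a1* over *Col4a2* (0.34), 0.2 for *Col5a1* over *Col5a2* (0.32) and 0.7 for *Col6a3* over *Col6a1* (0.10). These 4 ratios overlapped between KO and WT. With 1 library left out the log2 difference of *Col6a1* over *Col6a2* stayed between −0.73 and −0.60 and that of *Col1a1* over *Col1a2* between 1.48 (without KO1) and 2.87 (without KO2). *Col3a1* over *Col1a1* moved from −0.30 without KO1 to −2.11 without KO2. *Col4a1* over *Col4a2* fell to 0.17 without KO2 and *Col5a1* over *Col5a2* to 0.16 without KO3, and *Col6a3* over *Col6a1* changed sign without WT1 (−0.07).

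**Figure D5:**
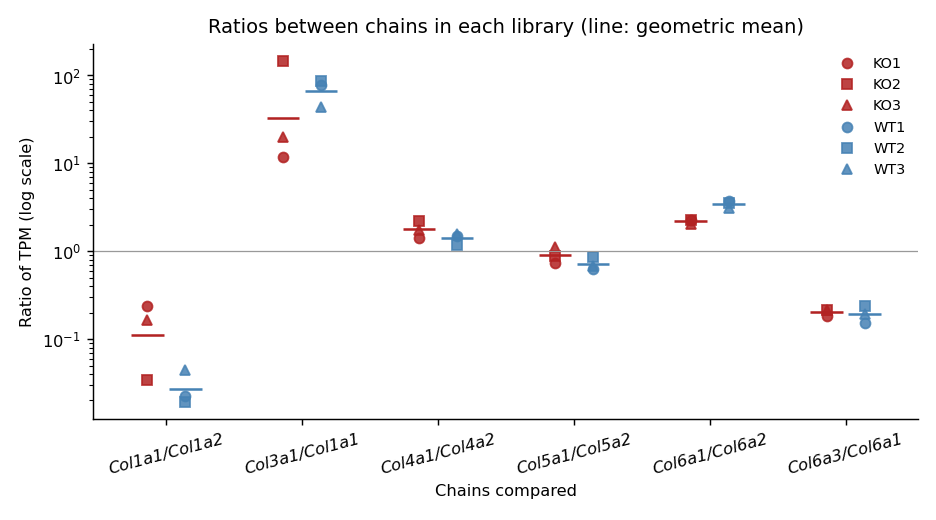
Ratio of TPM between chains in each library (log axis), with KO in red, WT in blue and a line at the geometric mean. *Col6a1* over *Col6a2* is the ratio whose groups do not overlap, at 2.03 to 2.29 in KO against 3.08 to 3.70 in WT.

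Genes that act on collagen were read from lists of the pathway. Among 17 tested genes of collagen folding and modification, 2 rose and 2 fell (23.5% called, near the 22.7% of all genes). The lysyl hydroxylase *Plod1* (0.65, adjusted p = 0.0113) and the prolyl 3-hydroxylase *P3h3* (0.98, adjusted p = 0.0213) were higher, and the prolyl 4-hydroxylase subunit *P4ha2* (−1.14, adjusted p = 0.0240) and the galactosyltransferase *Colgalt1* (−0.51, adjusted p = 0.0420) were lower. The list had a median of −0.04, close to the 0.03 of all genes. Its 4 calls were 0 in edgeR without WT1 (5 at an unadjusted p under 0.05), 1 without WT3, 2 without KO3 or WT2 and 6 without KO1. Of 9 tested genes of secretion and mRNA handling 1 passed (11.1%, against 22.7% of all genes). It was *Creb3l1*, a transcription factor that activates type I collagen genes in osteoblasts (1.06, adjusted p = 0.0252). No gene of this list was called in edgeR without KO3, WT1 or WT3 (2, 1 and 1 at an unadjusted p under 0.05), and 3 were without KO1. With the replicate number as a block, or in limma on TPM, 0 were called (1 at an unadjusted p under 0.05 in each). Outside the cell, the procollagen C-proteinase *Bmp1* (0.84, adjusted p = 0.0214) and its enhancer *Pcolce* (0.73, adjusted p = 0.0173) were the 2 of 7 tested cleavage genes that passed, both higher (28.6%, against 12.1% of all genes). The number called was 0 in edgeR without WT1 or WT3 (2 at an unadjusted p under 0.05 in each) and 4 without KO1. *Adamts14*, an N-proteinase, had a log2 fold change of −0.67 and did not pass (adjusted p = 0.274).

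Of 4 tested crosslinking enzymes 2 were higher, the lysyl oxidase *Lox* (1.14, adjusted p = 0.00605) and *Loxl4* (0.86, adjusted p = 0.00941), where 12.1% of all genes were higher. *Loxl1* was below WT in every KO library without passing (−0.36, adjusted p = 0.105). *Lox* had 217, 191 and 271 CPM in KO and 95.5, 121 and 91.1 in WT, without overlap. The number of crosslinking genes called was 1 without WT1 and 3 without KO1. Of 8 tested collagen receptors 2 passed, both lower. Of the 7 that reached 10 counts in both genotypes 1 passed (14.3%, against 21.4% of all such genes), the endocytic collagen receptor *Mrc2* (−0.71, adjusted p = 0.0184). The other was the integrin gene *Itga2*, which had under 1 CPM in each library and entered the test through WT only, the group in which it was high (−2.64, adjusted p = 0.0171). *Itga2* lies outside the naming rule and is given because the count is small. The number of receptors called was 0 in edgeR without WT1 or WT2 (2 at an unadjusted p under 0.05 in each) and 1 without WT3. Of 8 listed collagen-degrading proteases 2 were tested, and both were higher, against 12.1% of all genes. *Mmp14*, the membrane-type collagenase, had 405, 386 and 504 CPM in KO and 163, 210 and 187 in WT (1.21, adjusted p = 0.00426). *Mmp2*, a gelatinase that Mmp14 activates, had 342, 596 and 784 CPM in KO and 304, 257 and 273 in WT (1.05, adjusted p = 0.0346). Only 1 of them was called when KO2, KO3, WT1, WT2 or WT3 was left out, with the replicate number as a block, or in limma on TPM.

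Markers of the cell types that make collagen moved with some of these results. Their calls are to be read against the 12.1% of all genes that were higher and the 10.6% that were lower, and *Osr1* (fibroblast), *Alpl* (osteoblast) and *Lyz2* (macrophage), each among the higher genes, reached 10 counts in KO only. Summed fibroblast markers (10 genes, 6 tested, 5 higher, or 4 of 5 without *Osr1*, with *Tcf21* at 0 counts in every library and *Thy1* at most 5) were 146 to 297 CPM in KO and 47.0 to 65.1 in WT. Most of this sum was *Cd34*, with 157, 218 and 84.6 CPM in KO and 41.3, 56.6 and 39.3 in WT. *Dpt* had 3.78, 56.3 and 35 CPM in KO and 0.665, 0.396 and 0.539 in WT (log2 fold change 5.88, adjusted p = 0.00662). *Pi16* (2.45, adjusted p = 0.0171) and *Pdgfra* (1.17, adjusted p = 0.0257) were also higher, and *Twist2* (0.89, adjusted p = 0.197) did not pass. Summed osteoblast markers (8 genes, 6 tested, 2 higher and 1 lower, *Sp7* at most 4 counts) were 64.1, 29.7 and 43.4 CPM in KO and 23.3 to 26.5 in WT, and were highest in KO1, where *Col1a1* was also high. Summed skeletal muscle markers (12 genes, all tested, 1 higher and 1 lower, 16.7% called against 22.7% of all genes) were 20961, 8701 and 7755 CPM in KO and 14350 to 18551 in WT. KO2 and KO3, with the lowest muscle marker sums, had the higher Col6 sums of 4667 and 6110 CPM, whereas KO1, with the highest muscle sum, had a Col6 sum of 2691 CPM, still above the 1610 to 2307 of WT. Chondrocyte markers (7 genes, 2 tested, neither past the threshold) summed to 11.3 to 17.0 CPM in KO and 11.2 to 12.1 in WT. Endothelial (6 genes, *Pecam1* at most 3 counts, 1 lower) and macrophage markers (6 genes, *Adgre1* at most 3 counts, 2 higher) summed to at most 7.67 CPM. The part of these markers in the collagen results was not tested, and in bulk RNA fewer cells of a type and less RNA per cell cannot be told apart.

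Neighbouring genes were set beside each called collagen, over tested genes within 5 Mb and relative to the median of all genes. Their medians lay between −0.32 (75 genes around *Col5a3*, which rose) and 0.46 (56 genes around *Col20a1*, which fell). The 163 neighbours of *Col6a2* had a median of −0.17 and the 49 neighbours of *Col25a1* one of 0.09. No neighbourhood median exceeded the change of its called collagen in size, but those 10 genes were chosen for passing the threshold. A median over many genes seldom reaches such a size, so this comparison does not test a regional change. Exon bases shared with another annotated gene were 0% for 9 of the 10 called collagens and 1.54% for *Col20a1*, whose partner is on the same strand.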

How the data were processed

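RNA from 3 KO and 3 WT libraries was analysed. The authors aligned reads with STAR and deposited raw counts per gene without normalization, and TPM per gene and library from StringTie. Their processing notes also name FastQC, Trim Galore, featureCounts and Salmon, and the build mm9, whereas the methods name GRCm39. The deposited coordinates equal those of GENCODE M21 (GRCm38) for 42 of 44 collagens, so positions are on GRCm38. Tool versions for the deposited tables and the strand setting are not given in the sources used here. All 6 count columns were used.

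The members, classes, pathway and marker lists were chosen with earlier results of these data known. Genes were filtered with filterByExpr, scaled by TMM and tested with edgeR 4.0.16 (quasi-likelihood test, R 4.3.3, Benjamini-Hochberg adjustment over 14828 genes, threshold 0.05). Each SE was derived from this test, as the size of the log2 fold change divided by the square root of its F statistic. The study used DESeq2, here an alternative (1.42.0). TPM were tested with limma 3.58.1 on log2(TPM + 1) where TPM was at least 1 in at least 3 libraries. Steps were tested on simulated data. Values per library are given for collagens called or with a mean of at least 10 TPM in either genotype, 21 genes, and for *Col11a1* and others named after their values were seen. Of each pathway list up to 4 called genes whose mean log2 CPM reached 1 are named. The lists were folding and modification, secretion and mRNA handling, cleavage, crosslinking, receptors and degradation, and skeletal muscle, fibroblast, osteoblast, chondrocyte, endothelial and macrophage markers.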

Additional observations from a re-analysis of the deposited data

How the results depend on the processing

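The 10 called collagens kept their direction under every alternative in which they were tested, and *Col25a1* also kept its call in all 14. Where a filter was used, *Col25a1* entered the test through WT, the group in which it was high. *Col6a2* and *Col11a2* lost theirs only without WT1 and in limma on unfiltered TPM. The number of collagens called was 4 with limma on log2(TPM + 1) and on log2(TPM + 0.1). Only 21 collagens were tested in these fits, with 5 of the 10 called on counts among them. The number called was 1 with limma on log2(TPM + 1) without a filter. In edgeR without a filter on low counts it was 16. *Col1a1*, *Col11a1*, *Col4a5*, *Col4a6*, *Col6a3*, *Col12a1* and *Col14a1* were added there and *Col17a1* was lost. The number called was 14 with DESeq2, which added *Col3a1*, *Col4a6*, *Col6a3* and *Col14a1*, and 10 with median-of-ratios size factors or a filter of 10 counts in 3 libraries. With 1 library left out it ranged from 1 (without WT1) to 13 (without KO1), and on TPM from 0 to 8, with 1 on unfiltered TPM. The number of differentially expressed genes was 2114 with limma on log2(TPM + 0.1), 1056 on unfiltered TPM and 933 to 4712 with 1 library left out. The sign turned, outside the threshold, for *Col4a2* and *Col8a1* without KO3 and for *Col18a1* without KO2. With 1 library left out, *Col4a2* ranged from −0.16 to 0.34, *Col8a1* from −0.46 to 0.69 and *Col18a1* from −0.42 to 0.14. The median log2 fold change of the 33 tested collagens was 0.51, and it was 0.14 without KO3. In limma on log2(TPM + 1) the median was 0.10, but over the 21 collagens tested there and on another scale. These medians thus do not cover the same genes. The FACIT median of 0.39 was 0.07 without KO3. It was 0.15 in limma on log2(TPM + 1), where *Col12a1* and *Col16a1* were the only FACIT genes tested. Leaving out each library for the summed CPM of a class was chosen after seeing the data. It gave KO over WT ratios of 1.81 to 2.65 for Col6 and 1.12 to 2.39 for FACIT genes. The ratios were 1.1 to 1.47 for fibrillar and 1.07 to 1.55 for Col4 genes, and the lowest of each class was without KO3. The cause of these shifts was not tested.

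With the replicate number as a replicate block, 7 collagens and 2520 genes were called, *Col5a3*, *Col27a1*, *Col20a1* and *Col17a1* were lost and *Col6a3* passed. The deviations of same-numbered libraries correlated at 0.172, −0.121 and −0.0744, and not every library correlated best with its own number. With so few libraries these correlations cannot decide whether same-numbered libraries share a batch, and the labels give only the number. Genes with few counts, such as *Col6a5*, *Col17a1* and *Col20a1*, are limited by depth, and 11 of 44 collagens were left out by the filter on low counts.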
